A study of Mus musculus with 12 samples.

Results

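The mitochondrial ribosomal protein genes (MRP genes) were examined in sorted intestinal stem cells (ISCs) of young and old mice. They are as a rule named Mrpl for the large subunit and Mrps for the small subunit. Members were the protein-coding genes of the count table whose symbol began with Mrpl or Mrps followed by a digit. This rule took 78 of the 54232 genes in the table, and 5 processed pseudogenes with names of the same pattern were left aside. The 12 libraries came from 1 female mouse each and formed 4 groups of 3. SM6 young and SM6 old were ISCs of C57/Bl6 wild-type mice at 2 and 22 months, sorted by surface markers of the stem cell. Lgr5-GFP young and Lgr5-GFP old came from mice of the same ages that carried Lgr5-EGFP-IRES-CreERT (so spelled in the labels, and Lgr5-EGFP-IRES-CreERT2 in the study's methods), in which a green fluorescent protein and a tamoxifen-dependent Cre are placed in Lgr5, a receptor gene of ISCs. This reporter is known to be silent in a part of the crypts. The labels describe the surface marker sort for every library, while the study's reporting summary has the reporter mice sorted on GFP, so strain and isolation cannot be told apart. Each library is the cells of a whole sort, and in such bulk samples fewer cells of a type and less RNA per cell cannot be told apart.

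Mitochondria carry their own ribosome, the mitoribosome, which translates the mRNAs of the mitochondrial genome into subunits of the respiratory chain. Its rRNAs are made in the mitochondrion, whereas all of its proteins are encoded in the nucleus, made in the cytosol and imported. A part of these proteins descends from bacterial ribosomal proteins, and the others were added in the course of mitochondrial evolution. Of the 78 members, 51 encode large subunit proteins, of which 30 belong to bacterial families and 21 are specific to mitochondria, and 26 encode small subunit proteins, with 16 and 10 of these kinds. The remaining member, Mrps36, bears a ribosomal name but encodes a subunit of the 2-oxoglutarate dehydrogenase complex. Mrps18a and Mrps30 bear small subunit names but encode large subunit proteins and were counted with these. The members lay on 17 chromosomes, and 33 of them (42.3%) had the start of another protein-coding gene on the opposite strand within 1000 bp, against 10.8% of all 21983 protein-coding genes in the table.

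The promoters of Mrpl58 and Mrps12 are shown as examples that hold several motifs, and those of Mrps5 and Mrpl24 because these members passed a test below. Each runs from 250 bases before to 50 bases after the RefSeq start on GRCm38.p6, 5′ to 3′ on the strand of the gene. Capitals mark the letters searched for on both strands, which were TGCGCA (the core of the NRF1 site), CCGGAAG (ETS factors such as GABP), AAGATGG (YY1), GGGCGG (Sp1) and CACGTG (the E-box bound by Myc), none of which contains another. Mrpl58 (chr11:115403502-115403801, + strand) encodes a peptidyl-tRNA hydrolase built into the large subunit. Mrps12 (chr7:28741772-28742071, - strand) encodes a protein of the decoding centre and starts 172 bp from Sars2, the mitochondrial seryl-tRNA synthetase. Mrps5 (chr2:127587176-127587475, + strand) and Mrpl24 (chr3:87919294-87919593, + strand) encode proteins of bacterial families in the small and the large subunit. GENCODE vM21 places Mrps5 at chr2:127587222-127606829, so that its first exon there starts upstream of the RefSeq start.
Mrpl58: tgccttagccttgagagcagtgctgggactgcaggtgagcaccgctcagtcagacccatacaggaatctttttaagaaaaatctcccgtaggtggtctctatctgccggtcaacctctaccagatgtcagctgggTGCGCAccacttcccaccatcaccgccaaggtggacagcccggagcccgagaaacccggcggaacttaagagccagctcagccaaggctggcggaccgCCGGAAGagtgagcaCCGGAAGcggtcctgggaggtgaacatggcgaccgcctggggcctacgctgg
Mrps12: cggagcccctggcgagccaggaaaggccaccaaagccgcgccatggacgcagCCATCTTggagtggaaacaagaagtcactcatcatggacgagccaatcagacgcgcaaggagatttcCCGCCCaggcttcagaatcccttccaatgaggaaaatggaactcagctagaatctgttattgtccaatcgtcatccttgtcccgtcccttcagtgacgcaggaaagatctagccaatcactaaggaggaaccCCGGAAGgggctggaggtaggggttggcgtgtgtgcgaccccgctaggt
Mrps5: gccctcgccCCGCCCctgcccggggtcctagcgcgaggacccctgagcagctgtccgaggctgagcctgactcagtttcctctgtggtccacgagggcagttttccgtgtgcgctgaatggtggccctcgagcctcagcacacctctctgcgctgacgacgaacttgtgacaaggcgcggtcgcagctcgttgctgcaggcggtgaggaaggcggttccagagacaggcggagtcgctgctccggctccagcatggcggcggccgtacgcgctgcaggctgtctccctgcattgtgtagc
Mrpl24: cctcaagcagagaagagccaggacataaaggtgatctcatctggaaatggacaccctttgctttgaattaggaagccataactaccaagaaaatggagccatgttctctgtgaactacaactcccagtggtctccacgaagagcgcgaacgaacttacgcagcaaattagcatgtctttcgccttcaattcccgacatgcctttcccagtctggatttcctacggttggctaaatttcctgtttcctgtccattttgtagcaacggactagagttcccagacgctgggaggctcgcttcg

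RefSeq promoters were listed for 69 of the 78 members, 75 promoters in all, among 32851 promoters of the genome. The NRF1 letters stood in 29.3% of member promoters and in 7.76% of all promoters. The ETS letters stood in 34.7% against 8.86%, and the YY1 letters in 17.3% against 6.34%. The Sp1 letters stood in 52.0% against 35.7% and the E-box in 9.33% against 7.15%. Member promoters held more G and C, with a median of 58.7% against 52.7%, and its part in these shares was not tested. The Mrpl58 promoter held the NRF1 letters once and the ETS letters at 2 positions. The Mrps5 promoter held Sp1 letters alone, and Mrpl24 held none of the 5. A match is a match of letters and not a measured site.

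The libraries held 970472 to 3815425 counts (median 1424340). The 15 stem cell markers examined all passed the filter on low counts. Lgr5 itself lay between 233 ± 15.1 CPM (SD, n = 3, Lgr5-GFP old) and 332 ± 22.2 CPM (SM6 young) in the group means. CPM are counts scaled to a common library total, with totals adjusted by TMM. With age, 3 of the 15, Olfm4, Sox9 and Znrf3, fell in SM6 (log2 fold changes of -0.84, -1.01 and -1.01), where 1.77% of all genes were called lower. In Lgr5-GFP 0 of the 15 were called by edgeR, against 0.471% of all genes, and 3 reached an unadjusted p under 0.05, against 9.79%. There the median of the 15 was -0.04, against -0.35 in SM6. Of 10 immune markers 2 passed the filter and of 10 stromal and endothelial markers 1 did. Genes of Paneth cells, the antimicrobial neighbours of ISCs in the crypt, took 1.43% to 27.3% of the counts of a library. The 2 libraries at the top were Lgr5-GFP young replicate 1 (27.3%) and SM6 old replicate 3 (27.1%). Of the markers of Paneth, enterocyte, goblet and enteroendocrine cells 13 of 14, 13 of 13, 9 of 9 and 10 of 10 passed the filter. Passing it therefore does not tell stem cells from these cells. Markers of Paneth, enterocyte, goblet and enteroendocrine cells had median log2 fold changes with age of 2.02, 1.07, 1.13 and 0.62 in SM6 and of -2.79, -0.91, -0.61 and -0.95 in Lgr5-GFP. Their part in the results below was not tested beyond leaving those libraries out and a covariate for the Paneth share.

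The members together were counted at a similar level in every library. Their summed level was 8549, 8765 and 8618 CPM in the SM6 young libraries and 9159, 9969 and 9053 CPM in the SM6 old libraries. All 3 old libraries of SM6 thus stood above all 3 young ones, with means of 8644 ± 111 and 9394 ± 501 CPM (SD, n = 3). In Lgr5-GFP young the sum was 7609, 9112 and 9016 CPM, and in Lgr5-GFP old it was 8927, 8460 and 9245 CPM. Here the ages overlapped, with means of 8579 ± 841 and 8877 ± 395 CPM. The lowest value of all was that of Lgr5-GFP young replicate 1, 1 of the 2 libraries rich in Paneth transcripts. As a share of raw counts the members took 0.633% in that library and 0.725% in SM6 old replicate 3, the lowest shares of all, and 0.854% to 0.995% in the other 10. On this share the SM6 ages overlapped, with 0.900% ± 0.0420 in young and 0.883% ± 0.141 in old.

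The ratio of the subunits varied little. The summed level of the large subunit genes was 2.36 to 2.55 times that of the small subunit genes over all 12 libraries. It ran from 2.36 to 2.44 in young and from 2.39 to 2.41 in old ISCs of SM6, and from 2.43 to 2.50 and from 2.45 to 2.55 in those of Lgr5-GFP.

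**Figure D1:**
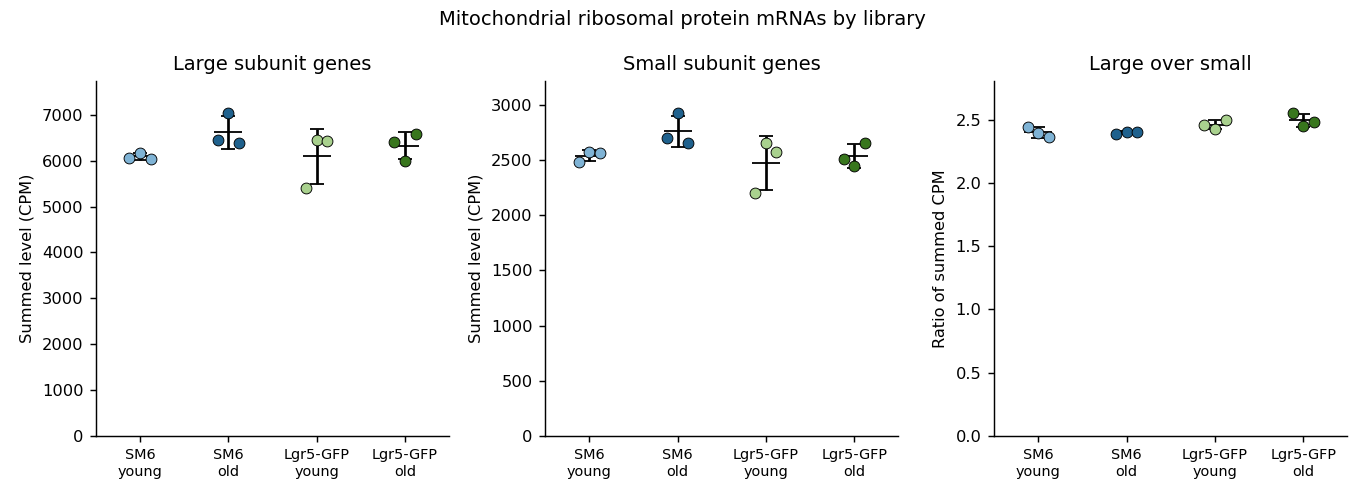
Summed level in CPM of the large subunit genes (left) and small subunit genes (middle) and the ratio of both sums (right) in each library, with points for libraries and bars for the mean ± SD of 3. The SM6 old points lie above the SM6 young points in both sums, the Lgr5-GFP ages overlap, and the ratio stays between 2.36 and 2.55.

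Single members were counted over a wide range. The mean over all 12 libraries had a median of 97.1 CPM among the 78 members, and the highest was 405 CPM, for Mrpl42. Reads of these 3′ libraries come from the end of a transcript and CPM were not divided by length, so an order of genes is an order of counted reads. Within a group the members varied by a median coefficient of variation of 8.91% (SM6 young), 11.9% (SM6 old), 14.2% (Lgr5-GFP young) and 13.7% (Lgr5-GFP old) (76 members, 3 libraries each).

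Of the members 6 were counted under 10 CPM on average, while the other 72 lay at 17.3 CPM or more. Mrpl53 had 0 counts in every library, and Mrps34 had 0 or 1 count, so these 2 did not pass the filter on low counts. A count of 0 allows up to 3 counts. Mrps18b had 0 to 6 counts in a library, Mrpl23 3 to 23, Mrps36 2 to 34 and Mrpl24 2 to 40. The last 300 exonic bases of Mrpl53, Mrps34, Mrps18b and Mrpl24 were wholly covered by exons of another annotated gene, which held for 1 of the other 72 members. For Mrpl53 (chr6:83109040-83109939) and Mrps34 (chr17:24895116-24897502) the covering gene, Gm42688 and Nme3, lay on the same strand. For Mrps18b (chr17:35910379-35916389) and Mrpl24 (chr3:87919506-87923672) it lay on the opposite strand. The exception was Mrps25, whose end lay wholly antisense to Nr2c2 and which was counted at 97.3 CPM. Mrpl23, which encodes a protein at the exit of the peptide tunnel, was identical over 298 bases of its end to the processed pseudogene Mrpl23-ps1. That pseudogene was counted at 126 ± 17.6 CPM in SM6 young and 141 ± 12.4 CPM in SM6 old, while Mrpl23 itself stood at 8.40 ± 3.79 and 5.50 ± 4.13 CPM. A match to a gene elsewhere, with at least 95% identity over 60 bases or more, was also found for 10 of the other 72 members. Among them were Mrps18c (280 CPM) and Mrpl42 (405 CPM). Such a match need not be a copy of the member: that of Mrps18c spanned at most 118 bases, and Jakmip2 and Zdhhc21 were among the genes matched. The level of all these members is therefore uncertain. How reads shared by overlapping genes or matching stretches were handled was not given in the sources used here.

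**Figure D2:**
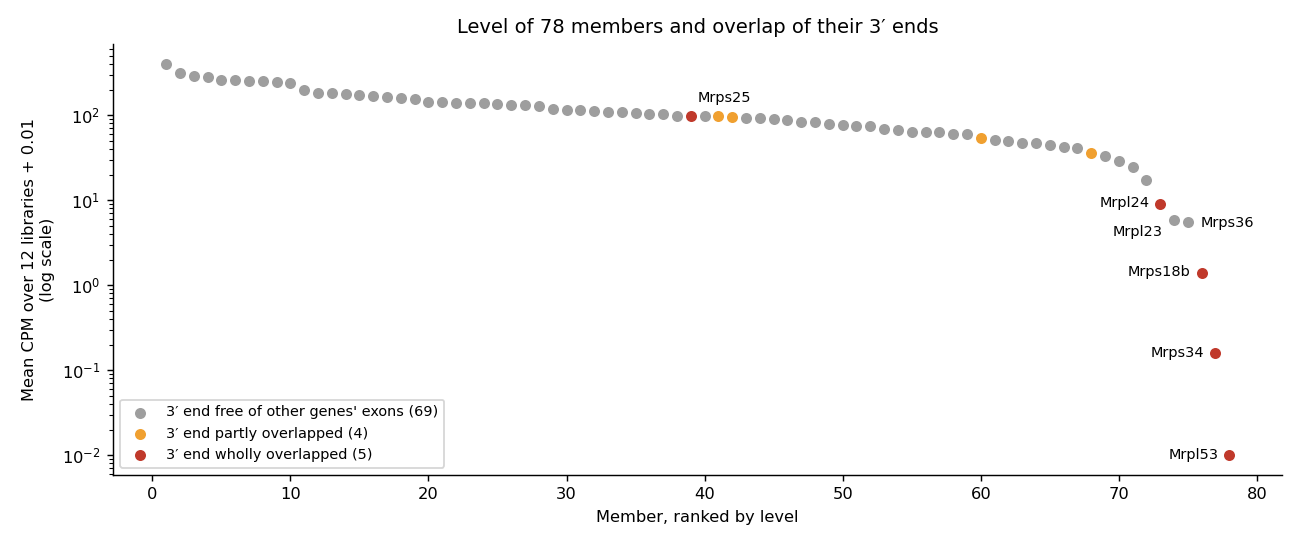
Mean level of each of the 78 members over 12 libraries (CPM plus 0.01, log scale) against its rank, coloured by how much of the last 300 exonic bases is covered by exons of another gene. Of the 5 members with a wholly covered end 4 are among the 6 lowest, and Mrps25 is the exception at 97.3 CPM.

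The first comparison asked whether MRP genes differed between old and young ISCs of the SM6 isolation. Most members stood slightly higher in old ISCs and 1 passed the test, Mrps5. In edgeR's quasi-likelihood test with Benjamini-Hochberg adjustment over 13368 genes, called at an adjusted p under 0.05, 1 of 76 members was called higher and 0 lower. Among all genes tested 0.643% were called higher and 1.77% lower. An unadjusted p under 0.05 was reached by 5 members (6.58%), against 13.1% of all genes. The median log2 fold change of the members was 0.12, with 53 of 76 above 0 (69.7%), beside a median of -0.01 and 49.1% for all genes. With library totals alone as scaling the median of the members was -0.02, but that of all genes was -0.16, so the members lay 0.14 above it (0.13 with TMM). The direction of this small shift thus holds relative to the other genes and not on every scale. With the Paneth share as a covariate the median of the members was 0.19.

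The differences were small within the precision of 3 libraries a group. The standard error of a member's log2 fold change had a median of 0.18 in SM6, and the 95% interval lay within a 1.5-fold change in either direction for 42 of 76 members and within a 2-fold change for 71. The large subunit genes had a median of 0.15 (37 of 50 above 0) and the small subunit genes a median of 0.10 (16 of 25). Members of bacterial families had a median of 0.16 (35 of 46 above 0) and those specific to mitochondria one of 0.10 (18 of 29).

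Mrps5, the counterpart of a bacterial protein that lies where the mRNA enters the small subunit, was counted at 83.7, 81.5 and 74.4 CPM in SM6 young and at 131, 157 and 121 CPM in SM6 old. The ages did not overlap, and Mrps5 rose with a log2 fold change of 0.77 (SE 0.19, adjusted p = 0.0240, edgeR). In Lgr5-GFP it was counted at 67.7, 89.8 and 76.6 CPM in young and at 91.3, 133 and 134 CPM in old. These ages did not overlap either, but the log2 fold change of 0.62 (SE 0.19) had an adjusted p of 0.178 in edgeR. On average over both isolations it rose by 0.70 (SE 0.13, adjusted p = 0.00306, edgeR), higher in 6 of 6 old libraries than in any young library of the same isolation. The call in SM6 was lost on leaving out any SM6 library other than SM6 old replicate 3, with adjusted p of 0.0535 to 0.148, and with library totals alone (0.150). Over all 23 alternatives its log2 fold change in SM6 stayed between 0.63 and 0.86. The call on the average held under all 22 alternatives, with adjusted p of 0.000108 to 0.0132. Zfp661, which starts 128 bp away on the opposite strand, had log2 fold changes of 0.67 in SM6 (adjusted p = 0.794, edgeR) and -1.57 in Lgr5-GFP (adjusted p = 0.550, edgeR).

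Mrpl24 was the one member called lower on the average over both isolations. The SM6 libraries gave 29, 27 and 29 counts at the young age against 8, 9 and 7 at the old age, which are 17.6, 15.0 and 21.0 CPM against 6.2, 6.1 and 5.6 CPM. The Lgr5-GFP libraries gave 40, 3 and 27 counts at the young age against 5, 2 and 6 at the old age, or 12.6, 2.8 and 11.2 CPM against 3.3, 1.6 and 5.8 CPM. The SM6 ages did not overlap, and the Lgr5-GFP ages did, through Lgr5-GFP young replicate 2. The log2 fold change was -1.56 in SM6 (SE 0.46, adjusted p = 0.0735, edgeR) and -1.45 in Lgr5-GFP (SE 0.52, adjusted p = 0.296, edgeR). On average Mrpl24 fell by 1.503 on the log2 scale (SE 0.34, adjusted p = 0.0152, edgeR). This call was lost without Lgr5-GFP young replicate 1 (adjusted p = 0.0600) and without both libraries rich in Paneth transcripts (0.0733), while the log2 fold change stayed between -1.72 and -1.32 over all 22 alternatives. Rrnad1, whose exons cover the end of Mrpl24 on the opposite strand, was counted at 11.3 ± 4.59 CPM in SM6 young and 14.5 ± 7.44 in SM6 old, and at 8.64 ± 0.444 and 11.8 ± 3.96 CPM in Lgr5-GFP. Its log2 fold change was 0.37 in SM6 (adjusted p = 0.783, edgeR) and 0.42 in Lgr5-GFP (adjusted p = 0.816, edgeR). Reads of this pair cannot be told apart without the strand, and the strand setting of the counting was not given in the sources used here.

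**Figure D3:**
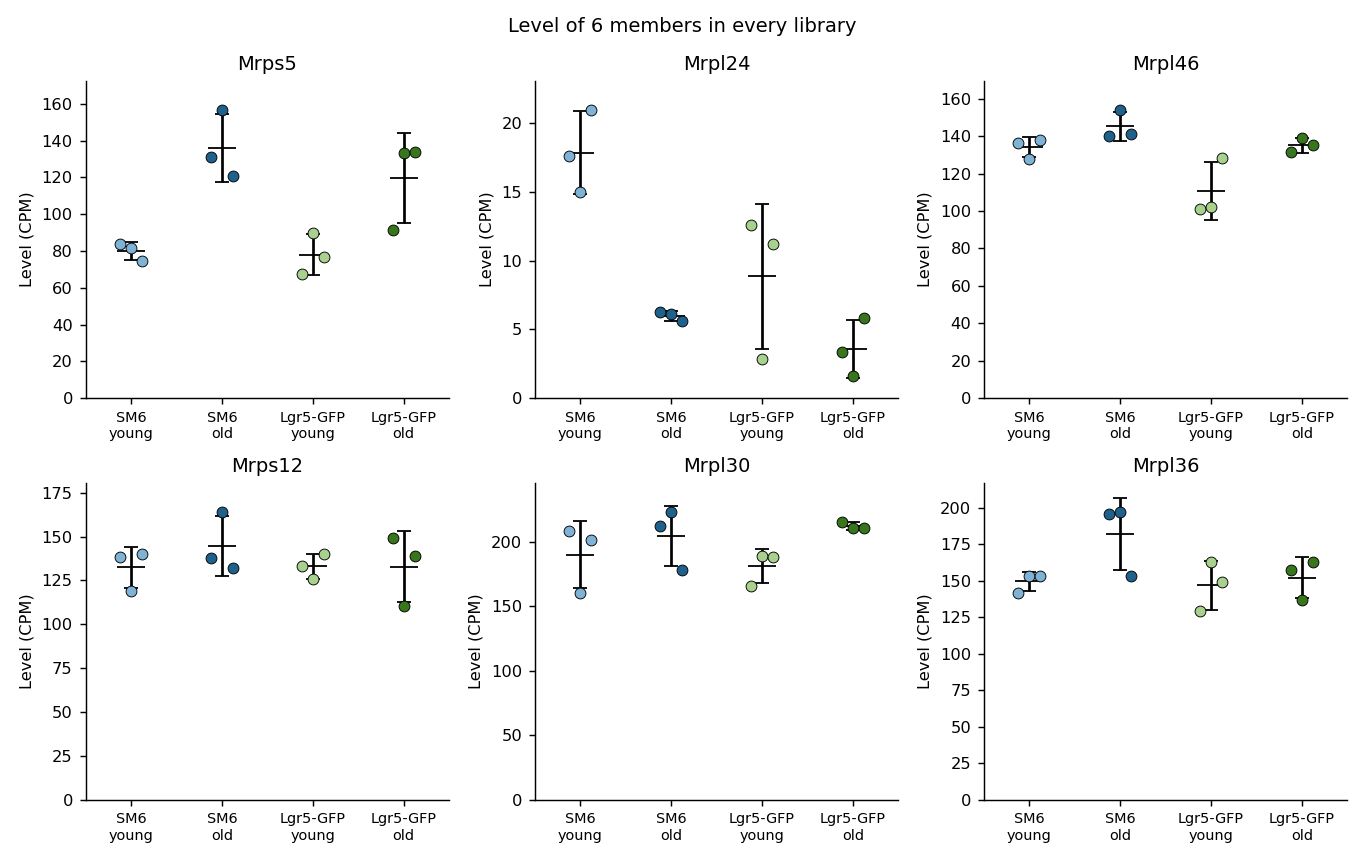
Level in CPM of 6 members in each library, with points for libraries and bars for the mean ± SD of 3 libraries. Mrps5 is higher in old than in young libraries of both isolations, Mrpl24 is lower in SM6 old than in SM6 young, and Mrps12, Mrpl30 and Mrpl36 overlap between the ages in SM6.

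The members of the fixed list were given whatever their change. Mrpl12, the stalk protein of the large subunit that meets the translation factors, stood at 171 ± 20.4 CPM in SM6 young and 205 ± 13.1 in SM6 old (log2 fold change 0.26, SE 0.18). It stood at 178 ± 39.1 and 182 ± 24.3 CPM in Lgr5-GFP. The SM6 ages did not overlap and the Lgr5-GFP ages did. Mrps12 stood at 133 ± 11.6 and 145 ± 17.2 CPM in SM6 and at 133 ± 7.30 and 133 ± 20.0 CPM in Lgr5-GFP, overlapping in both. Mrpl30 stood at 190 ± 25.8 and 205 ± 23.5 CPM in SM6 and at 181 ± 13.2 and 212 ± 2.80 CPM in Lgr5-GFP, where its ages did not overlap (0.23, SE 0.16). Mrpl36, which encodes one of the smallest proteins of the large subunit, stood at 150 ± 6.57 and 182 ± 25.0 CPM in SM6 and at 147 ± 16.8 and 152 ± 13.9 CPM in Lgr5-GFP. Mrpl58 stood at 135 ± 18.1 and 132 ± 14.3 CPM in SM6 and at 170 ± 80.6 and 139 ± 11.5 CPM in Lgr5-GFP, where Lgr5-GFP young replicate 3 alone reached 260 CPM. Mrps36 had a log2 fold change of -0.64 (SE 0.60) in SM6 and of -0.66 (SE 0.61) in Lgr5-GFP. Mrpl30 and Mrpl36 had been picked because the study listed both as higher in old ISCs, on full-length libraries of pooled mice. In SM6 here they had log2 fold changes of 0.11 and 0.29. None of the members of the fixed list passed the test in any age comparison, where their lowest adjusted p in edgeR was 0.497, for Mrpl36 in SM6.

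Beside Mrps5, the largest positive log2 fold changes in SM6 were those of Mrpl47 (0.51, SE 0.21, adjusted p = 0.279, edgeR) and Mrps2 (0.48, SE 0.24, adjusted p = 0.410, edgeR). Mrpl47 was counted at 57.0, 43.8 and 47.0 CPM in young and at 62.3, 93.0 and 53.5 CPM in old, which overlapped. The largest negative ones beside Mrpl24 were those of Mrps36 and Mrpl23, both under 10 CPM. The ages did not overlap for 11 members higher in old (Mrpl12, Mrpl14, Mrpl17, Mrpl20, Mrpl33, Mrpl46, Mrpl49, Mrps16, Mrps24, Mrps28 and Mrps5), against 7.74% of all genes. They did not overlap for 2 members lower in old, Mrpl24 and Mrpl44, against 9.78% of all genes. Mrps16, a small subunit protein of a bacterial family, was counted at 101, 103 and 106 CPM in SM6 young and at 128, 147 and 153 CPM in SM6 old (log2 fold change 0.46, SE 0.16, adjusted p = 0.177, edgeR).

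The same question was asked in the Lgr5-GFP isolation, where no member passed the test. Of 76 members 0 were called in either direction, against 0.471% of all genes, and DESeq2 and limma voom also called 0. An unadjusted p under 0.05 was reached by 3 members (3.95%), Mrpl19, Mrpl24 and Mrps5, against 9.79% of all genes. The median log2 fold change was 0.04 with 46 of 76 above 0 (60.5%), beside -0.03 and 46.3% for all genes. The 95% interval lay within a 1.5-fold change for 52 members and within a 2-fold change for 71. Mrpl19, of a bacterial family in the large subunit, was counted at 78.1, 85.1 and 103 CPM in young and at 123, 130 and 96.4 CPM in old (log2 fold change 0.39, SE 0.18, adjusted p = 0.460, edgeR). These ages overlapped through Lgr5-GFP old replicate 3. The ages did not overlap for 5 members higher in old (Mrpl30, Mrpl46, Mrpl52, Mrps30 and Mrps5), against 6.61% of all genes, and for 1 lower in old, Mrpl4, against 7.95%. The median was -0.04 without Lgr5-GFP young replicate 1 and -0.02 with the Paneth share as a covariate. With library totals alone it was 0.22, beside 0.16 for all genes.

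On average over both isolations 1 member was called higher, Mrps5, and 1 lower, Mrpl24, against 0.598% and 2.06% of all genes. An unadjusted p under 0.05 was reached by 4 members (5.26%), against 12.8% of all genes, Mrpl47 (0.33) and Mrps16 (0.28) among them. The median log2 fold change was 0.09 with 54 of 76 above 0 (71.1%), beside -0.03 and 46.8% for all genes. The standard error had a median of 0.13, and the 95% interval lay within a 1.5-fold change for 68 of 76 members. In both isolations the ages did not overlap for 2 members higher in old, Mrps5 and Mrpl46, against 0.748% of all genes, and for 0 members lower in old, against 1.29%. Mrpl46, a large subunit protein specific to mitochondria, was counted at 137, 128 and 138 CPM in SM6 young and at 140, 154 and 141 CPM in SM6 old. In Lgr5-GFP it was counted at 101, 102 and 128 CPM in young and at 131, 139 and 135 CPM in old. Its log2 fold change on the average was 0.20 (SE 0.11, adjusted p = 0.486, edgeR), so it did not pass the test.

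**Figure D4:**
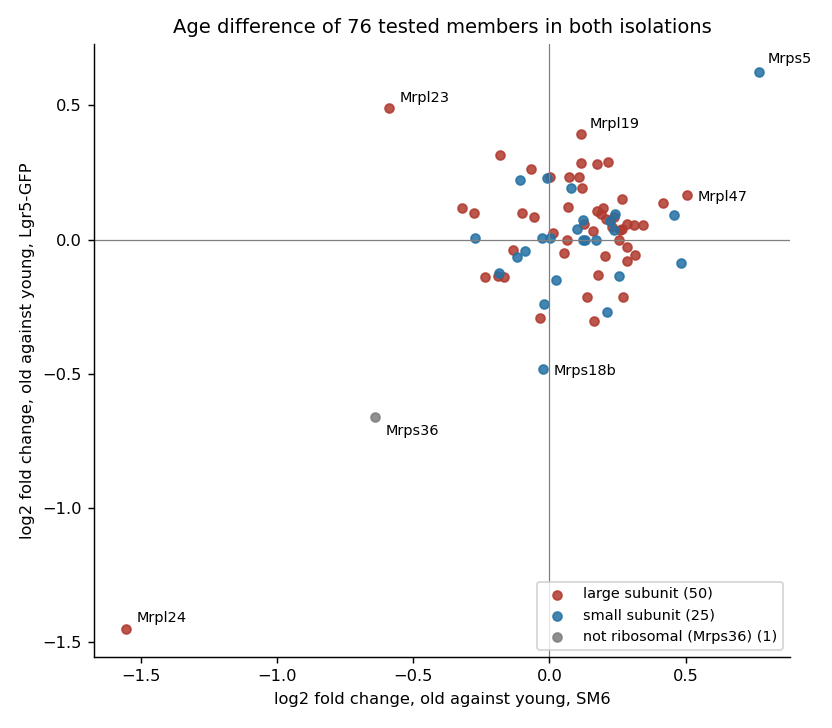
Log2 fold change of old against young for each of the 76 tested members, in SM6 (horizontal) and in Lgr5-GFP (vertical), coloured by subunit. Most points lie within 0.5 of 0 on both axes, Mrps5 stands alone at the upper right (0.77 and 0.62) and Mrpl24 at the lower left (-1.56 and -1.45).

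The difference between the 2 age effects was tested as an interaction, Lgr5-GFP minus SM6. Of 76 members 0 were called, against 0.658% of all genes, and 0 reached an unadjusted p under 0.05, against 9.43% of all genes. DESeq2 and limma voom also called 0. The median was -0.09, beside 0.00 for all genes. It was 0.24 with library totals alone, beside 0.35 for all genes, and -0.20 with the Paneth share as a covariate. With TMM scaling the values ran from -0.57 for Mrps2 to 1.08 for Mrpl23, and the smallest adjusted p in edgeR was 0.537. The 95% interval of the difference lay within a 2-fold change for 66 members and within a 1.5-fold change for 9, so smaller differences between the isolations were not detectable at this size.

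The isolations were then compared at each age. At 2 months 0 of 76 members were called, against 0.0898% of all genes, and 1 (1.32%) reached an unadjusted p under 0.05, against 7.47%. At 22 months 0 were called, against 0.718% of all genes, and 4 (5.26%) reached an unadjusted p under 0.05, against 9.40%. DESeq2 and limma voom called 0 at either age. The median log2 fold change of Lgr5-GFP against SM6 was 0.01 at 2 months and -0.05 at 22 months, beside -0.01 and 0.00 for all genes. With library totals alone both signs turned, to -0.12 and 0.16, beside -0.15 and 0.21 for all genes. At 2 months the isolations did not overlap for 5 members higher in Lgr5-GFP, against 6.38% of all genes, and for 7 lower, against 7.35%. At 22 months they did not overlap for 0 members higher, against 6.13%, and for 8 lower, against 7.41%. The largest of these at 22 months were Mrpl20, with -0.43 (SE 0.16, adjusted p = 0.380, edgeR), and Mrps24, with -0.40 (SE 0.15, adjusted p = 0.371, edgeR). Mrps24 was counted at 287, 268 and 296 CPM in SM6 old and at 215, 202 and 229 CPM in Lgr5-GFP old. Mrpl20 was counted at 157, 161 and 155 CPM in SM6 old and at 128, 113 and 110 CPM in Lgr5-GFP old.

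Genes that work with the MRP genes were read from lists named with earlier results in view. The other mitoribosomal proteins, whose symbols do not follow the pattern (Dap3, Ptcd3, Chchd1, Aurkaip1 and Gadd45gip1), had a median log2 fold change of 0.12 (SM6) and 0.10 (Lgr5-GFP). Of these 5 genes 0 were called. Among all genes 0.643% were called higher and 1.77% lower in SM6, and 0.471% in either direction in Lgr5-GFP. Dap3, a GTP-binding protein of the small subunit, was counted at 97.5 ± 14.9 CPM in SM6 young and 106 ± 6.97 in SM6 old, and at 97.2 ± 1.90 and 105 ± 12.4 CPM in Lgr5-GFP. Of 25 tested mitoribosome assembly factors, 14 mitochondrial translation factors, 17 mitochondrial aminoacyl-tRNA synthetases and 12 regulators of mitochondrial biogenesis, 0 were called in any age comparison by edgeR. At an unadjusted p under 0.05 there were 1, 0, 0 and 2 of them in SM6, against 13.1% of all genes, and 0, 1, 2 and 0 in Lgr5-GFP, against 9.79%. Their medians were 0.09, -0.04, -0.04 and -0.16 in SM6 and -0.14, 0.10, 0.04 and -0.02 in Lgr5-GFP. These lists thus showed no common direction.

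The RNAs of the mitochondrion itself were read in the same way. Of the 13 mitochondrially encoded mRNAs 8 passed the filter, and their median log2 fold change was 0.18 in SM6 and 0.39 in Lgr5-GFP, with 0 called in edgeR and 0 and 3 at an unadjusted p under 0.05, which 13.1% and 9.79% of all genes reached. mt-Rnr1, the rRNA of the small mitoribosomal subunit, stood at 4218 ± 177 CPM in SM6 young and 4329 ± 313 in SM6 old, and at 2497 ± 519 and 5459 ± 1672 CPM in Lgr5-GFP. It rose with age in Lgr5-GFP (log2 fold change 1.13, SE 0.20, adjusted p = 0.00782, edgeR) and on average (0.58, SE 0.14, adjusted p = 0.0200, edgeR). Among all genes 0.187% were called higher in Lgr5-GFP and 0.598% on average. In SM6 the log2 fold change of mt-Rnr1 was 0.04 (SE 0.20). The difference between the isolations was 1.09 (SE 0.28, adjusted p = 0.0800, edgeR) and did not pass the test. mt-Rnr2, the rRNA of the large subunit, had a log2 fold change of 0.76 in Lgr5-GFP (SE 0.19, adjusted p = 0.0772, edgeR) and 0.00 in SM6. The libraries were primed on poly(A), so counts of an rRNA are counts of primed reads and need not follow its amount. The summed level of the members in Lgr5-GFP, given above, overlapped between the ages.

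The members were set beside 2 other large sets of genes that most cells use. Of 79 tested nuclear genes of the respiratory chain 70 were above 0 in SM6, with a median of 0.22, and 60 in Lgr5-GFP, with a median of 0.10. One was called, Cox7a1, which rose in SM6 (log2 fold change 1.11, SE 0.27, adjusted p = 0.0225, edgeR), where 0.643% of all genes were called higher. Of 80 tested proteins of the cytosolic ribosome 55 were above 0 in SM6, with a median of 0.06, and 74 in Lgr5-GFP, with a median of 0.28. Of these 2 fell in SM6, Rps25 by 1.27 (SE 0.23, adjusted p = 0.00270, edgeR) and Rpl5 by 0.95 (SE 0.23, adjusted p = 0.0236, edgeR) on the log2 scale, beside 1.77% of all genes called lower. In Lgr5-GFP 0 of the 80 were called by edgeR, beside 0.471% of all genes, and 23 reached an unadjusted p under 0.05, beside 9.79% of all genes, where 6 of the 80 did in SM6, beside 13.1%.

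**Figure D5:**
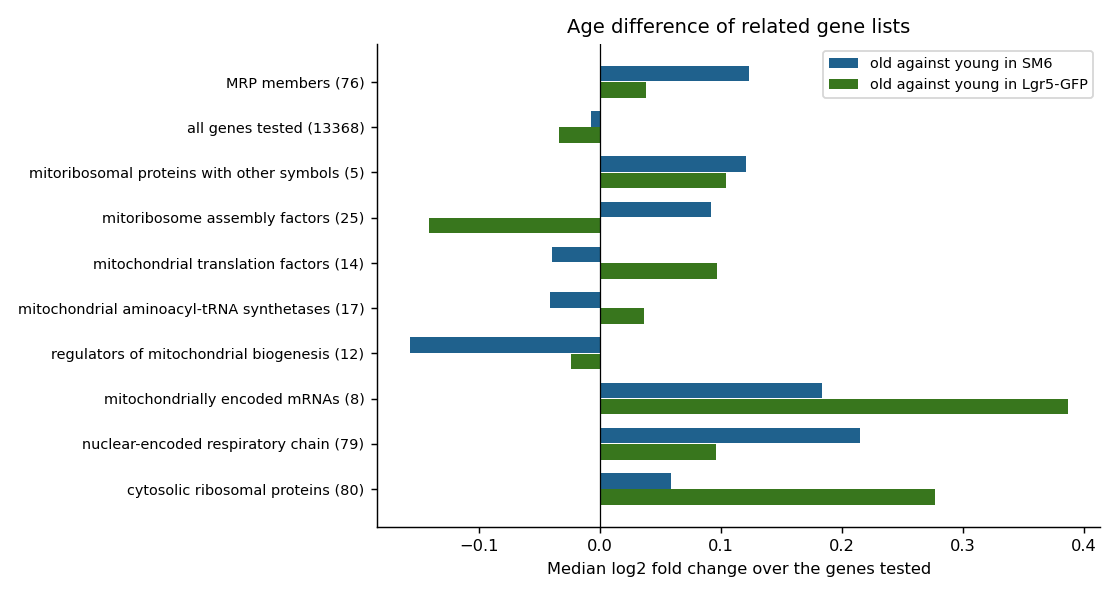
Median log2 fold change of old against young over the tested genes of each list (number tested in brackets), in SM6 (blue) and Lgr5-GFP (green). The member medians are 0.12 and 0.04, between those of the respiratory chain (0.22 and 0.10) and all genes (-0.01 and -0.03).

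The genes that start next to members on the opposite strand, which can share a promoter with them, were read in the same fit. Of 31 distinct partners that are not members 27 passed the filter, and 0 were called in edgeR in any age comparison. Among all genes 0.643% were called higher and 1.77% lower in SM6, 0.471% in either direction in Lgr5-GFP, and 0.598% and 2.06% on average. At these shares 0 calls in so few genes says little. The median log2 fold change of the partners was 0.26 (SM6), 0.01 (Lgr5-GFP) and 0.08 (average), beside -0.01, -0.03 and -0.03 for all genes. Mrpl36 overlaps at its start with Ndufs6, a subunit of complex I, and the pair had 0.29 and 0.30 in SM6 and 0.06 and 0.13 in Lgr5-GFP. Mrpl46 and Mrps11 are members that start opposite each other, with 0.12 and 0.03 in SM6 and 0.29 and -0.15 in Lgr5-GFP. Sars2, next to Mrps12, had a log2 fold change of -0.05 in SM6 and 0.05 in Lgr5-GFP.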

How the data were processed

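Poly(A)-primed 3′ RNA libraries of sorted mouse ISCs were read from 1 table of counts. The authors aligned reads to GRCm38 (mm10) with STAR 2.4.2a and counted them over exons of GENCODE genes with featureCounts, and the deposited values are raw counts with no scaling. The library kit carried molecular identifiers. Whether these were collapsed, and which strand setting was used, was not given in the sources used here, so floors cover counting error only. All sample columns were used.

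Gene identifiers were matched to GENCODE vM21 (54165 of 54232), a later release than the authors' on the same build, and members were taken by symbol and biotype. Members and lists were chosen with earlier results of these data known. Genes with more than 5 reads and at least 1 CPM in at least 1 library were kept, as in the study (13368 genes, of them 76 members). The main test was that of edgeR 4.0.16 in R 4.3.3 (TMM, quasi-likelihood, 1 mean per group, two-sided), since the study ran no differential test on these libraries, and p-values were adjusted by Benjamini-Hochberg over 13368 genes. DESeq2 1.42.0, limma 3.58.1 (voom with sample quality weights), other scalings, filters and thresholds, a Paneth covariate, a replicate block and omission of each library were alternatives. Omission of both libraries of highest Paneth share was added after seeing the data. The script was tested on simulated counts. Named were called members, the fixed list, the 3 largest changes in each direction, members whose libraries did not overlap in both isolations and members that failed the filter.

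Near-identical stretches in other genes were searched with BLAST+ 2.17.0, using the last 300 bases of each member with at least 95% identity over 60 bases. Replicate numbers did not pair the libraries. Libraries are separate mice, so p-values measure the spread between mice. Python 3.11.15 with matplotlib 3.10.9 drew the figures.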

Additional observations from a re-analysis of the deposited data

How the results depend on the processing

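Over the 25 alternatives, where they gave a value, 0 members were called in Lgr5-GFP, in the difference of the age effects and in both comparisons of the isolations. In SM6 the 1 call became 0 at an adjusted p under 0.01 and 2 with no filter on low counts, at an adjusted p under 0.10 and with only the libraries compared, and it ran from 0 to 2 over the omissions of 1 library, with 2 without Lgr5-GFP young replicate 2. Mrpl24 passed in SM6 under 4 of 23 alternatives, with adjusted p of 0.0299 to 0.217 over all of them. On average the 2 calls became 1 at an adjusted p under 0.01 and with both libraries of highest Paneth share left out, and ran from 1 to 2 over the omissions. With library totals alone Mrpl24 and not Mrps5 was called in SM6, and the median log2 fold change of the members became -0.0234 in SM6, 0.22 in Lgr5-GFP, 0.24 in the difference of the age effects, -0.12 between isolations at 2 months and 0.16 at 22 months. The median of all genes moved with it to -0.16, 0.16, 0.35, -0.15 and 0.21. With the Paneth share as a covariate the median was 0.19 in SM6, -0.02 in Lgr5-GFP, 0.07 on average, -0.20 in the difference of the age effects, 0.08 between isolations at 2 months and -0.13 at 22 months. As a share of raw counts the members took 0.900% in young and 0.883% in old ISCs of SM6, against 0.819% and 0.959% in those of Lgr5-GFP, an order of groups that differs from that of the summed CPM. Same-numbered libraries did not deviate together (correlations of -0.07 to 0.05, and 4 of 12 libraries closest to their own number), and with a replicate block the calls were 1 in SM6 and 2 on average, as without it, with an adjusted p for Mrps5 of 0.0212 and 0.00260. The 1749 values of named members under alternatives took the other sign 89 times, never with a call. Depth limits the members under 10 CPM: in SM6 the standard errors of their log2 fold changes ran from 0.46 (Mrpl24) to 1.23 (Mrps18b), against a median of 0.18. The cause of these differences was not tested.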
